A study of Ovis aries with 3 samples.

Results

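The 135 droplet barcodes described here, called members, carried almost no mitochondrially encoded RNA together with transcripts of AKR1D1 or CROT. A member had at least 500 genes and less than 1.5% of its unique molecular identifiers (UMIs, the counts of captured transcripts) from the 13 mitochondrially encoded protein genes. It also had at least 1 UMI of AKR1D1 or CROT, 0 UMIs of PTPRC, C1QA, COL3A1 and PECAM1, and at most 2 UMIs summed over KRTDAP, A2ML1 and KRT36. These limits kept 135 of 25789 barcodes: 79 with hay, 28 with concentrate and 28 with milk only. The rumen epithelium came from Hu sheep, at 42 days of age, and was dissociated with trypsin-EDTA before droplet capture. The groups were sheep given milk with alfalfa hay, sheep given milk with a concentrate starter, and sheep given milk only, so milk was common to all 3. Each diet had 1 library. Diet, animal and library preparation therefore cannot be told apart, and no difference had a replicate check.

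The rumen wall is lined by a stratified squamous epithelium. Its basal keratinocytes divide, spinous cells above them build desmosomes, and the outermost cells cornify, while the lining as a whole absorbs and metabolises short-chain fatty acids made by rumen microbes. AKR1D1 is a reductase of steroid hormones and bile acid precursors, CROT is a peroxisomal acyltransferase that moves shortened fatty acids onto carnitine, and GLRX, glutaredoxin, removes glutathione from oxidised proteins. The mitochondrial share of a barcode is the RNA copied from the mitochondrial genome, which encodes subunits of the respiratory chain, as a part of all RNA captured with that barcode.

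The libraries held 9543 barcodes with hay, 9214 with concentrate and 7032 with milk only, and 56861548, 60220174 and 63057979 UMIs in the same order. The lowest UMI count of a deposited barcode was 2263 with hay, 1047 with concentrate and 727 with milk only, so the deposited barcodes did not start at the same depth. Between 15 and 28 barcode sequences occurred in both libraries of a pair, and no member's barcode was among them. Members were set against 13803 comparison barcodes with at least 500 genes and a mitochondrial share of 5 to 20%, of which 6681 came from hay, 4634 from concentrate and 2488 from milk only. Because members were chosen on these same counts and single barcodes are not replicates, no test was made. The 95% intervals cover counting error only.

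Members made up 0.828% (exact interval 0.656 to 1.03) of the hay barcodes, 0.304% (0.202 to 0.439) of the concentrate barcodes and 0.398% (0.265 to 0.575) of the milk-only barcodes. They were small in RNA content. Their median was 3072 UMIs with hay, 2503.5 with concentrate and 2665 with milk only, against 5992, 8304 and 13406 UMIs in comparison barcodes. The limits on excluded genes count raw UMIs and are met more easily by shallow barcodes. All low-mitochondrial barcodes had medians of 2911, 2400 and 4929 UMIs, and those within these limits 2859.5, 2315 and 3198. With milk only the small size of members is thus not independent of the rule. The median number of genes of members was 748, 610.5 and 769, against 1145, 1499.5 and 1977.5 in comparison barcodes. With every barcode thinned to 800 UMIs outside the mitochondrial genes, the medians were 309, 319 and 343 genes in members and 320, 338 and 333 in comparison barcodes. At equal depth members thus had fewer genes with hay and concentrate and more with milk only. The mitochondrial share chose the members and had medians of 0.383%, 0.401% and 0.936% in members, against 9.98%, 10.5% and 8.12% in comparison barcodes. COX3, a cytochrome oxidase subunit, and CYTB, cytochrome b, were still found, with 359, 97 and 288 UMIs of COX3 and 221, 75 and 229 UMIs of CYTB over the members with hay, concentrate and milk only. Ribosomal protein genes took 19.1%, 17.8% and 15.4% of UMIs in members and 19%, 16.5% and 15.4% in comparison barcodes.

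The low-mitochondrial barcodes formed a separate group with hay and did not with milk only. With hay, 157 barcodes of at least 500 genes lay under 0.5% mitochondrial UMIs, 8 lay between 1.5 and 2%, and 3359 lay between 5 and 10%. With concentrate the same 3 ranges held 55, 18 and 2055 barcodes. With milk only they held 64, 96 and 1622 barcodes, with no dip between them. The number of barcodes that met every other limit was 24 between 1 and 1.5%, just inside the threshold, and 15 between 1.5 and 2%, just outside it. At the gene minimum, 26 members had 500 to 599 genes, and 20 barcodes that met the other limits had 400 to 499. The limit on KRTDAP, A2ML1 and KRT36, genes of differentiating keratinocytes, removed many candidates: of 329 low-mitochondrial barcodes with AKR1D1 or CROT, it alone removed 45 with hay, 8 with concentrate and 139 with milk only. Most AKR1D1 or CROT barcodes with little mitochondrial RNA in the milk-only library were therefore left out because they carried differentiation transcripts.

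**Figure D1:**
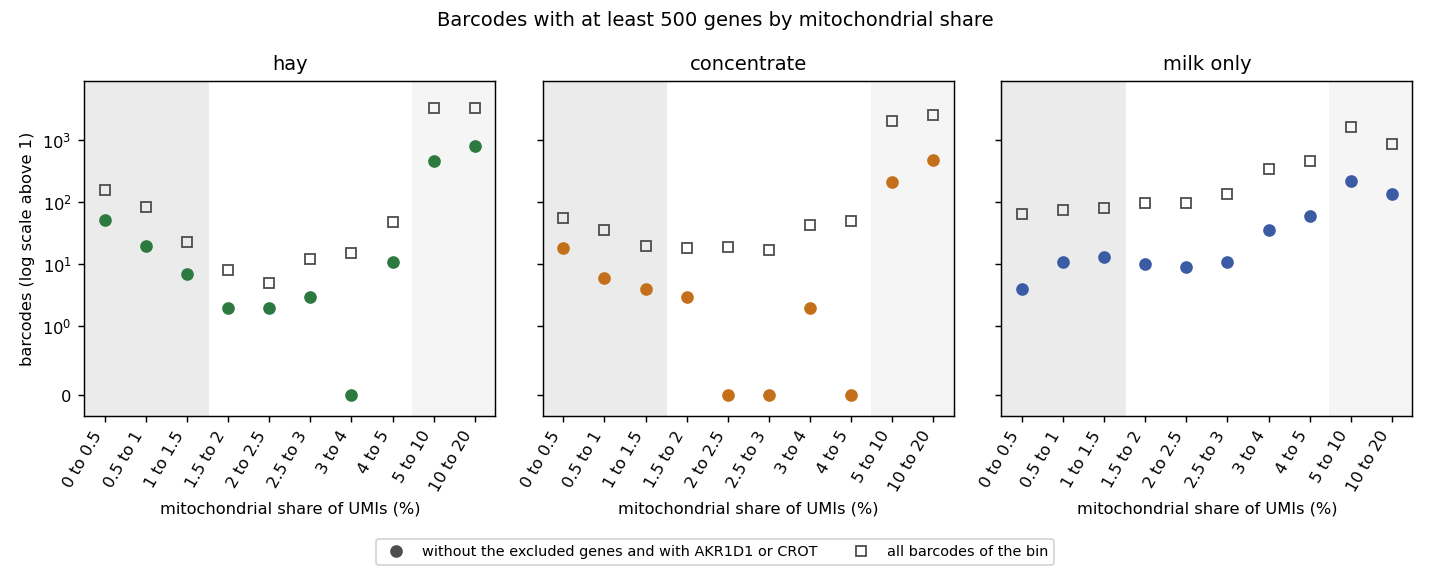
Number of barcodes with at least 500 genes in each range of the mitochondrial share of UMIs, per library, on a scale that is logarithmic above 1. Filled points are barcodes without the excluded genes and with AKR1D1 or CROT, open squares are all barcodes; the left shaded band holds the members and the right one the comparison barcodes. With hay the squares dip to 5 barcodes between 2 and 2.5%, whereas with milk only they do not dip.

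AKR1D1 supplied most of the choice. Of the 135 members, 82 had AKR1D1 alone, 36 had CROT alone and 17 had both, and 77 were chosen on a single UMI, 28 on 2 UMIs and 30 on 3 or more. AKR1D1 stood at 483, 323 and 424 CPM (counts per 1000000 UMIs outside the mitochondrial genes, summed over barcodes) in members with hay, concentrate and milk only, against 53.7, 41.5 and 75.3 CPM in comparison barcodes. CROT stood at 167, 174 and 43.2 CPM in members, against 21.5, 17.1 and 12.9 CPM in comparison barcodes. These contrasts follow from the rule. AKR1D1 and CROT were themselves chosen on these data, so their share among low-mitochondrial barcodes is a description and not a check. At 800 UMIs, 16.8% (12.1 to 22.5), 9.09% (4.24 to 16.6) and 14.7% (7.28 to 25.4) of the low-mitochondrial barcodes without excluded genes had a UMI of AKR1D1 or CROT with hay, concentrate and milk only. At the same depth 4.76% (4.26 to 5.3), 2.87% (2.41 to 3.39) and 5.31% (4.46 to 6.26) of comparison barcodes did. Without thinning the shares were 36.9%, 28.3% and 41.2% in low-mitochondrial barcodes, against 20.9%, 17.2% and 29.1% in the deeper comparison barcodes. Comparison barcodes held to the same limits on excluded genes numbered 6506, 4339 and 1737, and 4.18% (3.71 to 4.7), 2.21% (1.8 to 2.7) and 1.96% (1.36 to 2.72) of them had a UMI of AKR1D1 or CROT at 800 UMIs, and 19.6%, 15.7% and 20.5% without thinning. Barcodes with at least 2 UMIs of PTPRC or C1QA at 5 to 20% mitochondrial share, cells that should lack epithelial genes, numbered 13 with hay, 32 with concentrate and 230 with milk only, with medians of 3605, 2523 and 5025 UMIs. At 800 UMIs 0, 0 and 7 of them had a UMI of AKR1D1 or CROT, and without thinning 23.1%, 3.12% and 13% did. The exact upper bounds for 0 of 13 and 0 of 32 are 24.7% and 10.9%.

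GLRX was named with AKR1D1 and CROT as a marker with earlier results of these data known, so its level in members is a description and not a check. It was not part of the rule. GLRX was detected in 56 of 79 members with hay, 13 of 28 with concentrate and 17 of 28 with milk only. Its level was 524, 211 and 320 CPM in members, against 155, 135 and 150 CPM in comparison barcodes. The ratios were 3.38 (2.84 to 3.99), 1.56 (0.91 to 2.5) and 2.13 (1.5 to 2.94), so with concentrate the interval included 1. Comparison barcodes with the same excluded genes had 144, 110 and 54 CPM of GLRX, and the ratios over them were 3.64 (3.06 to 4.31), 1.92 (1.12 to 3.09) and 5.92 (4.15 to 8.21). Low-mitochondrial barcodes without AKR1D1 or CROT had 229, 264 and 214 CPM, so with concentrate members were not above them. At 800 UMIs, GLRX had a UMI in 30.4% (20.5 to 41.8), 21.4% (8.3 to 41) and 25% (10.7 to 44.9) of members and in 11%, 7.25% and 8.76% of comparison barcodes. It was found in 0 of 13, 0 of 32 and 8.26% (5.05 to 12.6) of the PTPRC or C1QA barcodes.

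Whether members look like keratinocytes depended on the gene. The carbonic anhydrase gene CA1, highly expressed throughout these libraries, and KRT17, a keratin of stratified epithelia, stood above their level in PTPRC or C1QA barcodes in all 3 libraries, and so did SFN, stratifin, an adaptor protein of squamous epithelia. KRT15, a basal keratin, and DSP, desmoplakin, which ties keratin filaments to desmosomes, were at least 2-fold lower in members than in comparison barcodes. Genes of T or NK cells, macrophages, fibroblasts and endothelial cells were at or near 0, in barcodes chosen for 0 UMIs of PTPRC, C1QA, COL3A1 and PECAM1.

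CA1 was present in every member. It stood at 47368, 59259 and 74283 CPM in members with hay, concentrate and milk only, against 21141, 40066 and 24997 CPM in comparison barcodes and 11370, 13506 and 8061 CPM in PTPRC or C1QA barcodes. The ratios of members over comparison barcodes were 2.24 (2.2 to 2.28), 1.48 (1.44 to 1.52) and 2.97 (2.91 to 3.04), and over PTPRC or C1QA barcodes 4.17 (3.86 to 4.5), 4.39 (4.12 to 4.67) and 9.22 (8.97 to 9.47). The median member had 45673, 68821 and 74813 CPM of CA1, and the lowest had 6811, 16758 and 38516 CPM. The median comparison barcode had 18441, 33291 and 11121 CPM. Single members thus overlapped with comparison barcodes, while their middle ranges stood apart with hay and with milk only.

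KRT15 had UMIs in 61 of 79, 25 of 28 and 24 of 28 members with hay, concentrate and milk only. Its level was 1687, 3340 and 3865 CPM in members, against 7161, 8877 and 8736 CPM in comparison barcodes and 3178, 3413 and 3214 CPM in PTPRC or C1QA barcodes. The ratios of members over comparison barcodes were 0.236 (0.214 to 0.258), 0.376 (0.333 to 0.424) and 0.442 (0.402 to 0.485). With concentrate, 92 of the 269 UMIs of KRT15 came from 1 member, and without it the members stood at 2368 CPM. Over PTPRC or C1QA barcodes the ratios of all members were 0.531 (0.447 to 0.632), 0.978 (0.829 to 1.15) and 1.2 (1.09 to 1.32). Without the concentrate member with 92 UMIs, a choice made after the data were seen, the ratio with concentrate was 0.267 (0.229 to 0.309) over comparison barcodes and 0.694 (0.574 to 0.836) over PTPRC or C1QA barcodes. The summed level of KRT15 in members was thus below that of PTPRC or C1QA barcodes with hay and slightly above it with milk only. With concentrate it was below that level once 1 member was left out. Shares after thinning to equal depth were also compared, with hay, concentrate and milk only in that order. KRT15 was then found in 53.2% (41.6 to 64.5), 67.9% (47.6 to 84.1) and 71.4% (51.3 to 86.8) of members. In PTPRC or C1QA barcodes the shares were 69.2% (38.6 to 90.9), 34.4% (18.6 to 53.2) and 26.1% (20.5 to 32.3). The intervals overlapped with hay and concentrate and stood apart with milk only. The number of CA1 UMIs for each KRT15 UMI, compared between sets of barcodes, was 28.1, 17.7 and 19.2 in members, against 2.95, 4.51 and 2.86 in comparison barcodes and 3.58, 3.96 and 2.51 in PTPRC or C1QA barcodes. In low-mitochondrial barcodes without AKR1D1 or CROT it was 10.4, 11.3 and 15.7, between members and comparison barcodes in each library.

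KRT17 stood at 1419, 708 and 1504 CPM in members with hay, concentrate and milk only, against 1149, 1246 and 1717 CPM in comparison barcodes and 828, 116 and 612 CPM in PTPRC or C1QA barcodes. Its ratios over comparison barcodes were 1.24 (1.11 to 1.37), 0.568 (0.43 to 0.736) and 0.876 (0.751 to 1.02), with no common direction. Over PTPRC or C1QA barcodes they were 1.71 (1.27 to 2.35), 6.09 (3.16 to 12.9) and 2.46 (2.08 to 2.89). At 800 UMIs KRT17 was found in 64.6% (53 to 75), 57.1% (37.2 to 75.5) and 67.9% (47.6 to 84.1) of members, in 54.4%, 51.7% and 52.7% of comparison barcodes, and in 23.1% (5.04 to 53.8), 3.12% (0.0791 to 16.2) and 16.5% (12 to 22) of PTPRC or C1QA barcodes. The interval of the members included the share of comparison barcodes in each library.

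**Figure D2:**
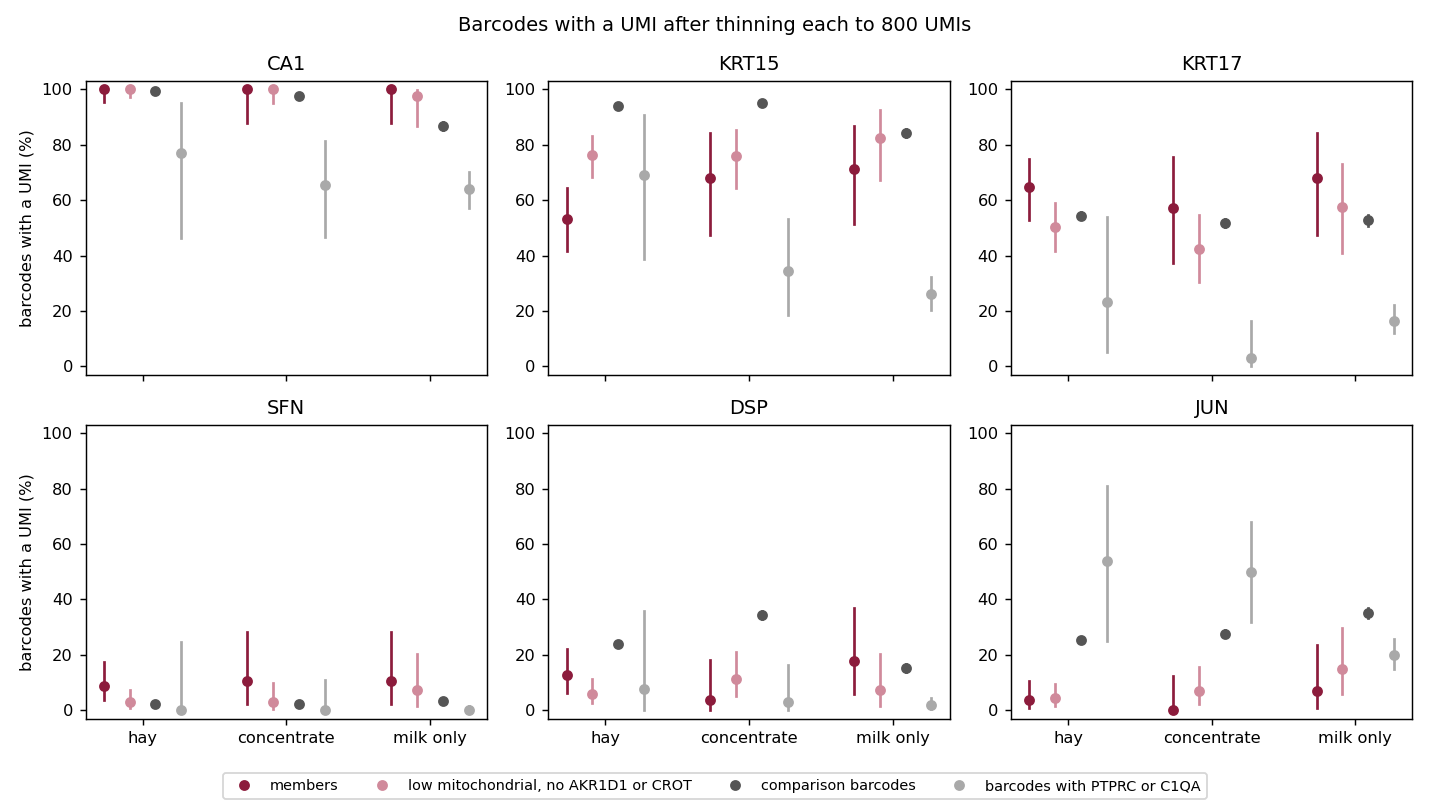
Share of barcodes with at least 1 UMI of 6 genes after each barcode was thinned to 800 UMIs outside the mitochondrial genes, by library; points are shares and lines exact 95% binomial intervals. CA1 was found in 100% of members of each library, KRT15 in 53.2%, 67.9% and 71.4% of members and in 94%, 95.1% and 84.3% of comparison barcodes with hay, concentrate and milk only.

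**Figure D3:**
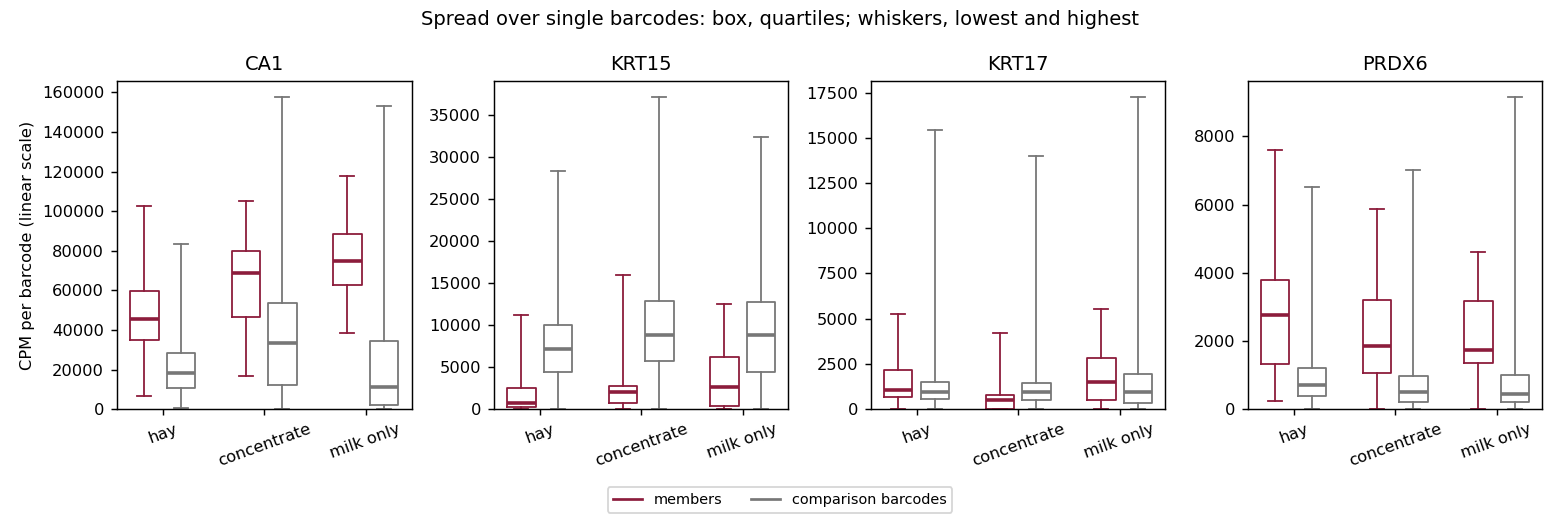
Level of CA1, KRT15, KRT17 and PRDX6 per barcode, in CPM on linear scales, in members and comparison barcodes of each library; boxes give the quartiles and median, whiskers the lowest and highest barcode. The members' KRT15 boxes end at 2475, 2788 and 6142 CPM with hay, concentrate and milk only, and the median of comparison barcodes lies at 7183, 8866 and 8838 CPM.

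The cell type lists gave mixed counts. Of 18 genes on the list of keratinocyte genes of any stage that the files name, 7 were measured, meaning at least 50 CPM on the higher side in every library. SFN was higher, DSP and KRT15 were lower and 4 passed in neither direction, and the median log2 ratio was -0.74, beside -0.04 over all 1480 genes measured, of which 0.946% were higher and 3.78% lower by the same call. Without the limit on KRTDAP, A2ML1 and KRT36, which is part of the choice of members, that median was 0.10. The basal keratinocyte list had 4 of 12 genes measured and a median of -1.32, with KRT15 lower. COL17A1, the hemidesmosome collagen, had 2, 5 and 5 UMIs in members (7.43, 62.1 and 43.2 CPM) and stood at 89.6, 140 and 102 CPM in comparison barcodes, with 4 of the 5 UMIs with concentrate in 1 member. IGFBP2, a secreted binder of insulin-like growth factors, was at 40.9, 186 and 778 CPM in members, against 321, 977 and 1314 CPM in comparison barcodes. Its ratios were 0.127 (0.0636 to 0.228), 0.191 (0.107 to 0.315) and 0.592 (0.476 to 0.728), short of 2-fold with milk only. ITGA6, the integrin of the basal surface, was at 48.3, 137 and 112 CPM in members, against 177, 193 and 147 CPM in comparison barcodes. The symbols KRT5 and KRT14, the usual pair of basal keratins, are not among those the files pair with an identifier.

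Junction and differentiation genes were mixed. DSP stood at 111, 149 and 86.5 CPM in members with hay, concentrate and milk only, against 383, 703 and 270 CPM in comparison barcodes, and the ratios were 0.291 (0.196 to 0.415), 0.212 (0.109 to 0.37) and 0.321 (0.154 to 0.59). JUP, plakoglobin, was at 115, 149 and 112 CPM in members and 165, 221 and 227 CPM in comparison barcodes, and DSG3, a desmosomal cadherin, at 85.4, 74.5 and 86.5 CPM in members and 98.2, 132 and 185 CPM in comparison barcodes. Neither reached 2-fold in all 3 libraries. Over PTPRC or C1QA barcodes the ratios were 1.16, 1.57 and 1.12 for JUP and 0.645, 7.05 and 1.42 for DSG3, and every interval included 1. DSP, and DSC3, another desmosomal cadherin, were below those barcodes with hay, at ratios of 0.421 (0.222 to 0.827) and 0.224 (0.06 to 0.84). Their intervals included 1 with concentrate and milk only. The spinous list had 2 genes measured and the granular and cornified list 3, with medians of -0.56 and -0.39 and no gene past the call. The rule itself removed barcodes rich in 3 genes of differentiating cells, so the levels of other late genes are not independent of it. Against comparison barcodes with the same exclusions both medians were above 0, at 0.65 with 1 spinous gene measured and 0.87 with 2 granular and cornified genes measured, again with no gene past the call. Against them SPINK5, a protease inhibitor of differentiating keratinocytes, had ratios of 8.38 (6.52 to 10.6), 1.95 (0.53 to 5.01) and 2.56 (1.89 to 3.38) with hay, concentrate and milk only, and S100A8, an alarmin, had 4.57 (2.91 to 6.85), 1.97 (0.982 to 3.53) and 4.21 (3.61 to 4.89). The direction of these lists therefore changed with the comparison barcodes.

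The 3 cycling genes measured, TOP2A, CENPF and TPX2, which act in chromosome segregation, had a median log2 ratio of -1.45 with no gene past the call. CENPF had 17, 34 and 1 UMIs in members with hay, concentrate and milk only. All 34 UMIs with concentrate and 10 of the 17 with hay came from 1 member of each library. TOP2A was less concentrated with hay, where the member with the most held 6 of 14 UMIs, than with concentrate, where 1 member held 19 of 20. Over the whole cycling list 33 of 135 members had a UMI. The concentrate member in question had 1893 genes, the most of any member.

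Lists for most other cells had few or no UMIs, except the neutrophil list. The 135 members held 0 UMIs over 16 T or NK cell genes, 1 UMI over 18 macrophage or dendritic cell genes, 1 UMI over 11 fibroblast genes and 0 UMIs over 12 endothelial genes, counting only genes outside the rule. Mast cell, eosinophil, platelet and tuft or secretory cell genes also had 0 UMIs. Erythroid genes had 6, 0 and 4 UMIs with hay, concentrate and milk only, B or plasma cell genes 1, 0 and 2, melanocyte genes 0, 0 and 5, muscle or pericyte genes 4, 4 and 1, and glia or neuron genes 2, 1 and 9. The neutrophil list had 26, 12 and 91 UMIs in 47 of the 135 members, of which S100A12, which keratinocytes can also express, held 17, 8 and 84. S100A12 and IL1R2, a decoy receptor, were the 2 genes of that list measured, with no call. CD74, the invariant chain of antigen-presenting cells, was found in 0 members. PTPRC, C1QA, COL3A1 and PECAM1 were at 0 by the rule and say nothing here. The low counts of other T or NK cell, macrophage, fibroblast and endothelial genes are therefore not independent of the rule. Comparison barcodes had 3.02, 10.8 and 176 CPM over the T or NK cell genes with hay, concentrate and milk only. Over the macrophage or dendritic cell genes they had 3.4, 6.4 and 134 CPM. With hay both lists were thus near 0 in both sets. In these data the members carried KRT17, SFN and CA1 above the level of PTPRC or C1QA barcodes, less KRT15 and DSP than comparison barcodes, and few or no UMIs of the defining genes of the other cells listed, apart from S100A12. Members look like keratinocytes in KRT17 and SFN and not in the summed level of KRT15 and DSP. After thinning to equal depth, with milk only, KRT15 and DSP were found in larger shares of members than of PTPRC or C1QA barcodes. For DSP these shares were 17.9% (6.06 to 36.9) and 1.74% (0.476 to 4.39). With hay and concentrate the intervals of the shares overlapped for both genes. JUP and DSG3 did not stand apart from PTPRC or C1QA barcodes. SFN had a UMI in 27 of 79, 6 of 28 and 10 of 28 members with hay, concentrate and milk only.

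Among 1480 genes measured, 14 (0.946%) were at least 2-fold higher in members than in comparison barcodes in all 3 libraries with intervals that exclude 1, and 56 (3.78%) were at least 2-fold lower. The median log2 ratios of the 14 ran between 1.12 and 2.06, and those of the 56 between -4.80 and -1.15. Of these, 9 higher and 43 lower genes had a symbol. The split depended on scaling: 23 were higher and 40 lower with CPM over all UMIs, and 6 and 97 with median-of-ratios scaling. A call has to hold in every library, so leaving 1 out can only add genes and must keep all 14 and all 56. There were 19 and 69 without hay, 32 and 116 without concentrate, and 33 and 100 without milk only.

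Of the 9 higher genes with a symbol, RBP2 had the largest median log2 ratio, 1.96. RBP2, the cytosolic retinol-binding protein of intestinal epithelium, had 50, 16 and 65 UMIs in members with hay, concentrate and milk only. It stood at 186, 199 and 562 CPM in members, against 44.7, 58.9 and 145 CPM in comparison barcodes, with ratios of 4.15 (3.07 to 5.5), 3.37 (1.92 to 5.49) and 3.88 (2.99 to 4.96). RBP2 was at 199, 0 and 38.6 CPM in PTPRC or C1QA barcodes, so with hay members were not above that level. With milk only the ratio of RBP2 over comparison barcodes with the same exclusions was 7.86. SFN was at 130, 99.3 and 112 CPM in members, against 30.8, 37.2 and 54.7 CPM in comparison barcodes and 0, 10.6 and 18.1 CPM in PTPRC or C1QA barcodes. The ratios of SFN over comparison barcodes were 4.22 (2.93 to 5.9), 2.67 (1.15 to 5.27) and 2.06 (1.09 to 3.52), resting on 35, 8 and 13 UMIs. The milk-only ratio is near the 2-fold limit. The SFN call was lost when a pair of identifiers described below was left out of the totals.

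Thiol and peroxide defence was represented by 2 called genes. PRDX6, a peroxiredoxin that reduces lipid hydroperoxides, was at 2760, 2160 and 2032 CPM in members with hay, concentrate and milk only, against 898, 930 and 953 CPM in comparison barcodes. Its ratios were 3.07 (2.85 to 3.31), 2.32 (1.99 to 2.7) and 2.13 (1.87 to 2.42), and it had UMIs in 79 of 79, 26 of 28 and 27 of 28 members. GSTA1, a glutathione transferase, was at 230, 509 and 2455 CPM in members, against 36.3, 219 and 1193 CPM in comparison barcodes. Its ratios were 6.34 (4.84 to 8.18), 2.33 (1.67 to 3.16) and 2.06 (1.82 to 2.31), although only 19 of 79, 9 of 28 and 22 of 28 members had a UMI. Against comparison barcodes with the same exclusions the milk-only ratios were 3.32 for PRDX6 and 5.43 for GSTA1. PRDX6 was thus spread over nearly all members and GSTA1 over a minority with hay and concentrate. The GSTA1 call was lost when a pair of identifiers described below was left out of the totals. Of 14 genes measured on the list, GSTA1 and PRDX6 were higher, 0 were lower and 11 had a log2 ratio above 0, with a median of 0.46, beside 0.946% higher and 704 of 1480 above 0 among all genes measured. PRDX4, the peroxiredoxin of the endoplasmic reticulum, was at 130, 124 and 320 CPM in members, against 314, 309 and 343 CPM in comparison barcodes.

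The other higher genes with a symbol were DECR1, AHCYL2, IDI1, EIF5A and RAB11A. DECR1, a mitochondrial enzyme of unsaturated fatty acid oxidation, stood at 145, 174 and 190 CPM in members with hay, concentrate and milk only, against 60.1, 61.5 and 57.3 CPM in comparison barcodes. AHCYL2, of the family that regulates bicarbonate transporters, was at 256, 186 and 86.5 CPM in members, against 91.8, 67.3 and 28.6 CPM in comparison barcodes. IDI1, which isomerises isopentenyl diphosphate in cholesterol synthesis, was at 520, 223 and 398 CPM in members, against 224, 67.4 and 165 CPM in comparison barcodes. For IDI1 the PTPRC or C1QA barcodes had 215, 190 and 196 CPM, close to the members with concentrate. EIF5A, a translation factor, and RAB11A, a GTPase of recycling endosomes, had median log2 ratios of 1.25 and 1.12. The interval of EIF5A with concentrate, 1.02 to 4.69 on 8 UMIs, just excluded 1.

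**Figure D4:**
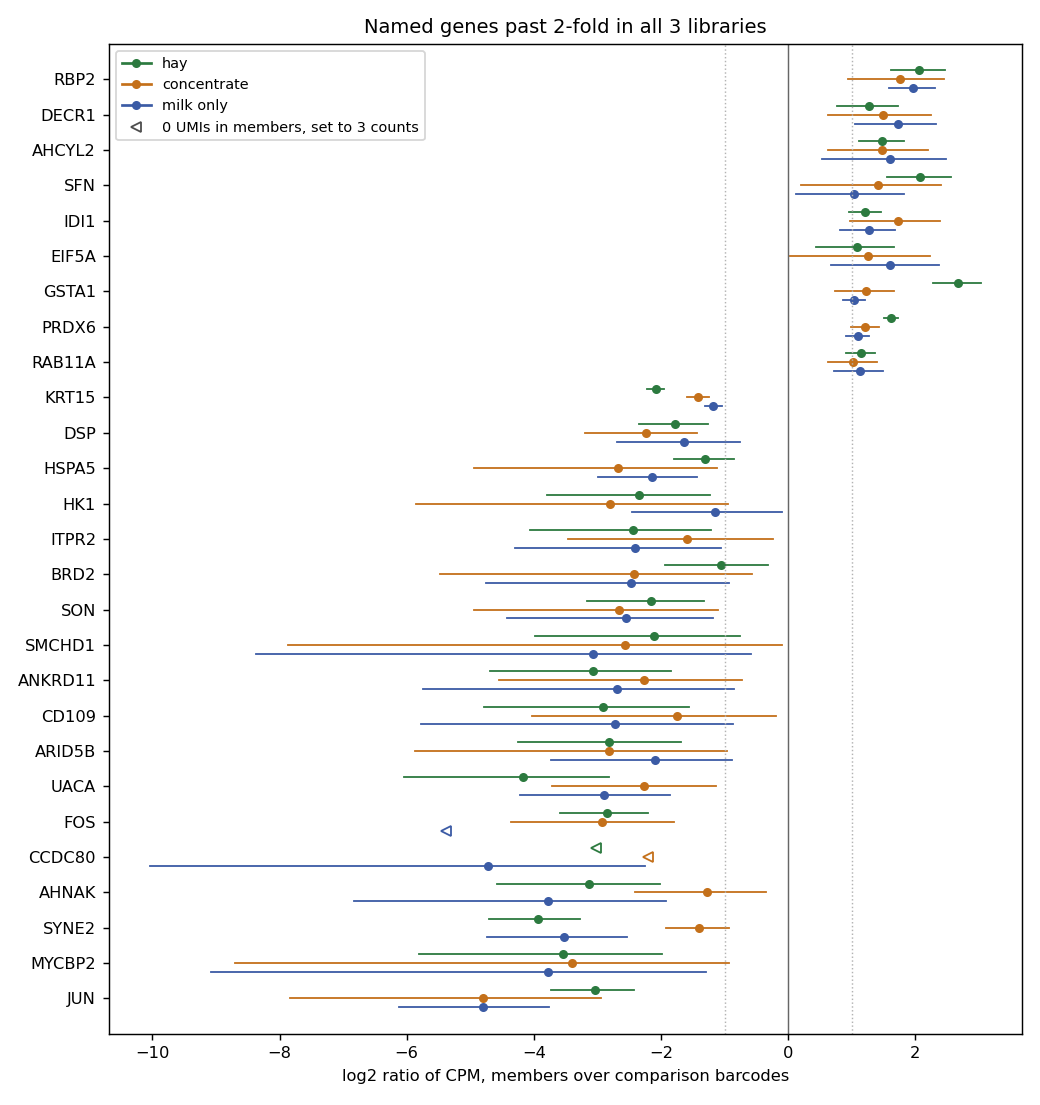
Log2 ratio of CPM in members over comparison barcodes for the named genes past 2-fold in all 3 libraries; points are libraries, lines 95% intervals of counting error, and open triangles genes with 0 UMIs in members, set to 3 counts. GSTA1 with hay lies farthest right, at a ratio of 6.34, and JUN, FOS, SYNE2 and MYCBP2 are among the genes farthest left.

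JUN had the lowest median log2 ratio of the named genes, -4.80. JUN, a subunit of the transcription factor AP-1, was at 78.0, 24.8 and 60.5 CPM in members with hay, concentrate and milk only, against 642, 690 and 1689 CPM in comparison barcodes. The ratios were 0.122 (0.0752 to 0.186), 0.036 (0.00436 to 0.13) and 0.0358 (0.0144 to 0.0738). FOS, its partner, had 19, 6 and 0 UMIs in members and was at 509, 563 and 1076 CPM in comparison barcodes. With the count of 0 set to 3 counts, the ratio of FOS was 0.0241 with milk only, where the upper limit of the interval was 0.0296, and its ratios were 0.139 (0.0835 to 0.217) with hay and 0.132 (0.0486 to 0.288) with concentrate. At 800 UMIs, JUN was found in 3.8% (0.79 to 10.7), 0% (0 to 12.3) and 7.14% (0.877 to 23.5) of members, and in 25.4%, 27.6% and 35.2% of comparison barcodes. JUN was also at 1324, 1955 and 880 CPM and FOS at 1771, 2272 and 494 CPM in PTPRC or C1QA barcodes. ZFP36, which speeds mRNA decay, was at 111, 12.4 and 60.5 CPM in members, against 170, 225 and 1569 CPM in comparison barcodes, short of 2-fold with hay. All 4 immediate early genes measured had a log2 ratio below 0, with a median of -3.55 and 2 past the call, beside 776 of 1480 below 0 and 3.78% past the call among all genes measured.

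SYNE2, a nesprin that links the nuclear envelope to the cytoskeleton, stood at 66.9, 435 and 69.2 CPM in members with hay, concentrate and milk only, against 1028, 1151 and 795 CPM in comparison barcodes. Of its 35 UMIs with concentrate, 29 came from the member with 1893 genes, and without that member SYNE2 was at 80.3 CPM. AHNAK, a very large scaffold protein, was at 22.3, 112 and 17.3 CPM in members, against 196, 270 and 237 CPM in comparison barcodes, and 8 of its 9 UMIs with concentrate came from the same member. CCDC80, a secreted matrix protein, had 0, 0 and 1 UMIs in members and was at 90.7, 171 and 230 CPM in comparison barcodes. With counts of 0 set to 3 counts, the ratios of CCDC80 were 0.123 with hay and 0.217 with concentrate, with upper limits of 0.151 and 0.267, and its ratio with milk only was 0.0377 (0.000953 to 0.21). CCDC80 was likewise at 0, 74.0 and 82.5 CPM in PTPRC or C1QA barcodes. CD109, a membrane-anchored co-receptor of transforming growth factor beta, was at 14.9, 37.2 and 17.3 CPM in members, against 112, 125 and 115 CPM in comparison barcodes.

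The other lower genes named have several roles. MYCBP2, a ubiquitin ligase, had 3, 1 and 1 UMIs in members (11.1, 12.4 and 8.65 CPM) and was at 129, 131 and 118 CPM in comparison barcodes. SON, a splicing cofactor of nuclear speckles, was at 40.9, 37.2 and 34.6 CPM in members, against 183, 235 and 202 CPM in comparison barcodes. SMCHD1 and ANKRD11, both chromatin proteins, ARID5B, a DNA-binding regulator of transcription, and BRD2, a reader of acetylated histones, had median log2 ratios of -2.57, -2.70, -2.81 and -2.42. BRD2 was nearest to the limit, with a ratio of 0.479 (0.261 to 0.804) with hay. UACA, a coiled-coil protein, was at 14.9, 74.5 and 60.5 CPM in members, against 267, 357 and 451 CPM in comparison barcodes. ITPR2, a calcium channel of the endoplasmic reticulum, and HK1, the hexokinase that starts glycolysis, had median log2 ratios of -2.41 and -2.35. HSPA5, the main chaperone of the endoplasmic reticulum, stood at 145, 37.2 and 130 CPM in members, against 357, 237 and 575 CPM in comparison barcodes and 1208, 1342 and 1205 CPM in PTPRC or C1QA barcodes.

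A pair of identifiers without a symbol followed the mitochondrial share. Over comparison barcodes, ENSOARG00000000002 correlated with the mitochondrial share at Pearson's r of 0.67, 0.57 and 0.63 with hay, concentrate and milk only, and ENSOARG00000000004 at 0.61, 0.56 and 0.57, and the next of the 119 genes with at least 1000 CPM in comparison barcodes, MGST3, at 0.49, 0.28 and 0.30. These are descriptions over barcodes of 1 library that share depth. ENSOARG00000000002 was at 628, 981 and 4046 CPM in members, against 12719, 13303 and 29168 CPM in comparison barcodes. ENSOARG00000000004 was at 1077, 1602 and 2801 CPM in members, against 20337, 20437 and 25646 CPM in comparison barcodes. Both count among the 56 lower genes and are part of the totals behind each CPM. Leaving them out of the totals gave 9 higher and 63 lower genes. All 9 were among the 14 higher genes, and called genes of the lists went from 9 to 7. SFN and GSTA1, each at a ratio of 2.06 with milk only, were then no longer past 2-fold in every library.

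Nuclear genes for mitochondria were not low alongside the mitochondrially encoded ones. Of 43 nuclear genes of oxidative phosphorylation measured, 37 had a log2 ratio above 0 and 0 were past 2-fold in all libraries, with a median of 0.39, beside -0.04 and 704 of 1480 above 0 over all genes measured. NDUFB6, a subunit of the first respiratory complex, was at 721, 559 and 666 CPM in members with hay, concentrate and milk only, against 371, 365 and 308 CPM in comparison barcodes. UQCRB, of the cytochrome bc complex, was at 791, 807 and 1184 CPM in members, against 446, 423 and 600 CPM in comparison barcodes. ATP5PD, of ATP synthase, was at 2485, 3067 and 2870 CPM in members, against 1835, 1758 and 1623 CPM in comparison barcodes. NDUFB3, another subunit of the first complex, had ratios of 1.39 (1.1 to 1.73), 1.96 (1.38 to 2.7) and 2.2 (1.69 to 2.82). TFAM, which packages and transcribes the mitochondrial genome, was at 78.0, 124 and 77.8 CPM in members and 63.5, 70.5 and 59.9 CPM in comparison barcodes, with every interval including 1. SLIRP, which stabilises mitochondrial mRNA, and TRMT10C, of mitochondrial RNase P, had median log2 ratios of 0.40 and -0.74. Of the 4 genes of mitophagy and autophagy measured, 0 passed the call, and their median was 0.00.

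The list of butyrate oxidation and ketogenesis had 6 genes measured, 4 above 0 and 0 past the call, with a median of 0.60. ECHS1, enoyl-CoA hydratase, was at 104, 74.5 and 86.5 CPM in members with hay, concentrate and milk only, against 48.0, 43.8 and 32.4 CPM in comparison barcodes. ACAT1, which makes acetoacetyl-CoA, was at 368, 298 and 242 CPM in members, against 192, 163 and 105 CPM in comparison barcodes. BDH1, the dehydrogenase of the ketone body beta-hydroxybutyrate, was at 1296, 931 and 1081 CPM in members, against 968, 605 and 515 CPM in comparison barcodes. ACSL3, an acyl-CoA synthetase, was at 44.6, 12.4 and 51.9 CPM in members and 74.0, 112 and 96.8 CPM in comparison barcodes.

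Few genes of the pathways of AKR1D1 and CROT were measured. Of 51 peroxisomal genes with a symbol, 4 were measured and 0 were past the call, with a median log2 ratio of 0.21. On the steroid and bile acid list 2 genes were measured, with a median of -0.17. TSPO, a cholesterol-binding protein of the outer mitochondrial membrane, was at 613, 410 and 1150 CPM in members with hay, concentrate and milk only and 682, 773 and 1092 CPM in comparison barcodes. HSD17B2, which inactivates steroid hormones, was at 197, 223 and 277 CPM in members and 289, 255 and 185 CPM in comparison barcodes.

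In the remaining lists, HSPA5 and HK1 were the genes past the call. Of 25 genes of ubiquitin and the proteasome measured, 0 passed the call, with a median of 0.09. The 9 heat shock genes measured had a median of -0.61, with HSPA5 lower, and HSP90B1, its partner chaperone, stood at 721, 286 and 769 CPM in members with hay, concentrate and milk only, against 1451, 1058 and 1078 CPM in comparison barcodes. The 4 glycolysis genes measured had a median of -0.84, with HK1 lower and GAPDH at 903, 1428 and 1833 CPM in members, against 1254, 1762 and 1613 CPM in comparison barcodes. Of 5 transport genes measured, CA1 had a median log2 ratio of 1.16 and the other 4 were below 0. ATP1B1, a subunit of the sodium pump, was at 7.43, 24.8 and 242 CPM in members, against 99.0, 139 and 437 CPM in comparison barcodes, and CA12, a membrane carbonic anhydrase, at 371, 310 and 251 CPM in members, against 609, 849 and 306 CPM in comparison barcodes.

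**Figure D5:**
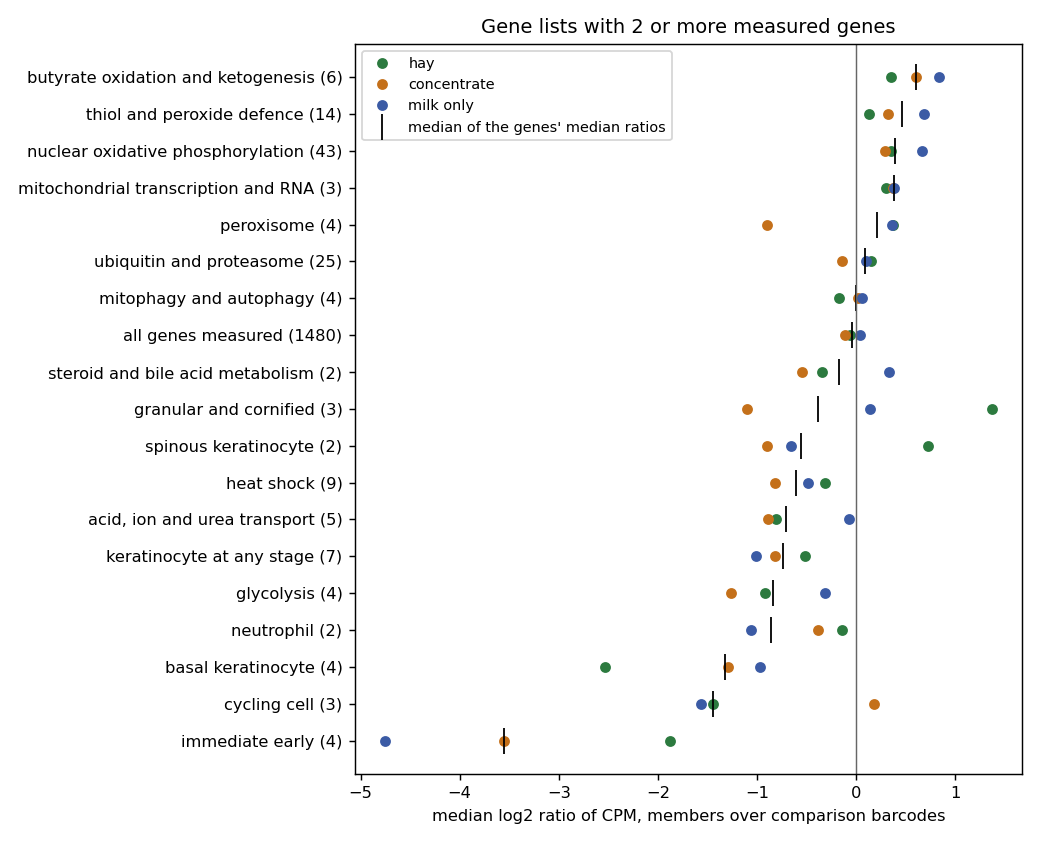
Median log2 ratio of CPM in members over comparison barcodes for each gene list with at least 2 measured genes, with the number measured in brackets; coloured points are libraries and black bars the median over genes of their median ratio. Nuclear oxidative phosphorylation lies at 0.39 and immediate early genes at -3.55, beside -0.04 over all 1480 genes measured.

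Few genes were called between members and other low-mitochondrial barcodes. A further 246 barcodes (135 with hay, 71 with concentrate and 40 with milk only) met every limit except that AKR1D1 and CROT were at 0. Of 1254 genes measured between members and these barcodes, 1 (0.0797%) was at least 2-fold higher in all 3 libraries and 0 were lower. With 28 members each with concentrate and milk only, a call in every library was hard to reach. The few calls therefore do not show that the 2 sets are alike. That gene, ENSOARG00000017002, has no symbol and stood at 661, 521 and 207 CPM in members with hay, concentrate and milk only, against 140, 144 and 100 CPM in the barcodes without AKR1D1 or CROT. Against comparison barcodes, the 246 barcodes had 3 genes higher (0.206%) and 66 lower (4.54%) of 1455 measured. Both contrasts share the comparison barcodes. The 14 higher genes of the members had a median log2 ratio of 1.37 in members and 0.91 in barcodes without AKR1D1 or CROT, and the 56 lower genes had -2.13 in members and -1.46 in barcodes without them. KRT15 was at 3683, 4711 and 4964 CPM in barcodes without AKR1D1 or CROT, between members and comparison barcodes in each library, and CA1 at 38457, 53407 and 78148 CPM.

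In a clustering that left out the rule genes and the mitochondrially encoded genes, most members lay with these other low-mitochondrial barcodes, but that grouping changed with the settings. Of 14 clusters, 1 held 98 of 135 members (72.6%, 64.3 to 79.9), 149 of the 246 low-mitochondrial barcodes without AKR1D1 or CROT (60.6%) and 28 of the comparison barcodes (0.203%). That cluster had 337 barcodes, a median of 661 genes and a median mitochondrial share of 0.595%, and 76.0% of it lay under the 1.5% limit. It took 67 of 79 members with hay and 24 of 28 with concentrate, but 7 of 28 with milk only. Of the other milk-only members, 10 lay in a cluster with 1231 of its 1247 barcodes from that library, 8 in one with 693 of 888, and 3 in one with 989 hay, 706 concentrate and 367 milk-only barcodes. Without that pair of identifiers, the leading cluster held 51.1% (42.4 to 59.8) of members and 33.3% of the low-mitochondrial barcodes without AKR1D1 or CROT. Of its 236 barcodes, 66.5% lay under the limit. At the lower resolution of 0.3 it held 70.4% of members, but 4485 of its 4802 barcodes were comparison barcodes. With 1000 variable genes it held 45.9% of members and 21.5% of the low-mitochondrial barcodes without AKR1D1 or CROT, and 427 of its 610 barcodes were comparison barcodes. Under those 2 settings most barcodes of the cluster that held the most members were thus comparison barcodes.

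Members chosen on at least 2 UMIs of AKR1D1 and CROT had a lower KRT15 level than members chosen on 1. The genes of this comparison were chosen after their values were seen. The split is made on counts of the rule's own genes, so it is a description and not a check. With hay, 38 members had at least 2 such UMIs and 41 had 1, at medians of 3096 and 2938 UMIs outside the mitochondrial genes. KRT15 was at 1123 CPM in the 38 and 2200 CPM in the 41, a ratio of 0.51 (0.416 to 0.624). With concentrate the ratio was 0.264 (0.185 to 0.37) and with milk only 0.497 (0.403 to 0.61), each between 10 and 18 members. With concentrate the member that held 92 KRT15 UMIs was among the 18. GSTA1 was at 366 and 106 CPM with hay and 889 and 250 CPM with concentrate in members with at least 2 and with 1 such UMI, and at 2378 and 2523 CPM with milk only. ANXA1, annexin A1, had ratios of 2.25 (1.87 to 2.7), 1.47 (1.01 to 2.13) and 1.44 (1.13 to 1.82) with hay, concentrate and milk only. CA1 differed little, with ratios of 1.3, 1.1 and 0.963. RBP2 (2.33, 0.668 and 2.24), KRT17 (1.44, 0.679 and 0.589) and FABP4 (1.56, 1.16 and 0.616) had no common direction. With milk only the members with at least 2 such UMIs were also deeper in UMIs outside the mitochondrial genes, at a median of 5437, against 2600.5 in members with 1, so there depth and AKR1D1 count cannot be told apart. With concentrate these medians were 2828.5 and 2360.

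Members also differed between the diets. Of 1697 genes measured between hay and milk-only members, 59 (3.48%) were at least 2-fold higher with hay and 199 (11.7%) lower, with intervals of counting error that exclude 1. Between concentrate and milk-only members the counts were 91 (5.04%) higher and 121 (6.7%) lower of 1806. Single members can carry such a gene. CENPF and SGO2, at ratios of 48.8 and 20.1 for concentrate over milk only, had 34 of 34 and 11 of 14 UMIs in the concentrate member with 1893 genes. These counts were not made without that member. Of the genes between hay and milk-only members, 15 of the 59 (25.4%) and 39 of the 199 (19.6%) were past 2-fold in the same direction in comparison barcodes, where 2.12% and 4.6% of all 1697 were. Of those between concentrate and milk-only members, 13 of the 91 (14.3%) and 22 of the 121 (18.2%) were, where 2.66% and 3.21% of all 1806 were. GSTM3, a glutathione transferase, was at 29.7 CPM in hay members and 74.5 CPM in concentrate members, against 908 CPM in milk-only members, and at 30.1 and 66.5 CPM, against 529 CPM, in comparison barcodes. S100A8, an alarmin of stressed keratinocytes, was at 89.2 and 137 CPM in hay and concentrate members, against 1530 CPM in milk-only members, and at 31.8 and 111 CPM, against 1389 CPM, in comparison barcodes. GSTM3 and S100A8 were thus past 2-fold between these diets in comparison barcodes as well. FABP4, a fatty acid carrier chosen after its values were seen, was at 1657 (1507 to 1818) and 6754 (6198 to 7346) CPM in hay and concentrate members, against 6908 (6437 to 7404) CPM in milk-only members. In comparison barcodes FABP4 was at 708 and 6101 CPM with hay and concentrate, against 1992 CPM with milk only. The ratio of concentrate over milk only was thus 3.06 in comparison barcodes, while in members it was 0.978 (0.875 to 1.09), with an interval that included 1. ACOT8, a peroxisomal thioesterase, was at 219 CPM in hay members, against 25.9 CPM in milk-only members, resting on 3 UMIs in the milk-only members.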

How the data were processed

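UMI counts per gene and barcode were used as deposited, as whole numbers that the authors had not normalized. Cell Ranger made them, version 5.0.0 per the file headers and version 3.1 per the labels' protocols. The genome build and annotation were not given in the sources used here. Members were chosen by the stated limits, and the members, gene lists and comparisons were chosen with earlier results of these data known. No doublets were called or removed. CPM were summed counts over UMIs outside the 13 mitochondrially encoded genes, within 1 library. A gene was called at 2-fold or more, in the same direction, with an exact conditional binomial 95% interval that excluded 1, in each library with at least 20 members; 0 counts were set to 3 counts per library. Genes with under 50 CPM on the higher side were not counted as measured. A fold divides sums over barcodes, so a deep barcode weighs more.

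The genes named were, of those called with a symbol of 1 identifier, up to 20 highest and 15 lowest by median log2 ratio, without mitochondrially encoded, ribosomal protein and rule genes; up to 4 genes per list with the largest absolute median; and the rule genes as description. JUP, KRT17, FABP4, ANXA1 and MGST3 were chosen after their values were seen, as were the genes named between diets. The files list 26247 genes, 17043 with a symbol, and 0 identifiers matched the gene table at hand. Shares at fixed depth came from thinning each barcode once to 800 UMIs. Clustering used the Leiden method on 2000 variable genes. Python 3.11.15, numpy 2.4.6, scipy 1.17.1, pandas 2.3.3, scanpy 1.11.5 and leidenalg 0.10.2 were used, and the calls were tested on simulated data. Alternatives changed the limits, comparison barcodes, scaling, filters and libraries.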

Additional observations from a re-analysis of the deposited data

Results flagged for a closer look

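In 4 genes the ratio of members over comparison barcodes lay on opposite sides of 1 in different libraries, each with an interval of counting error that excludes 1. The difference between libraries was not tested. SPINK5, a protease inhibitor of differentiating keratinocytes, had a ratio of 2.58 with hay, 0.225 with concentrate and 0.572 with milk only. LYPD3, a surface protein of suprabasal keratinocytes, had ratios of 2.01, 0.342 and 0.546 in the same order. S100A12, a calcium-binding alarmin, had a ratio of 2.96 with hay and 0.759 with milk only. HSD17B2, which inactivates steroid hormones, had a ratio of 0.681 with hay and 1.5 with milk only. The limit on KRTDAP, A2ML1 and KRT36 removed 45 candidates with hay, 8 with concentrate and 139 with milk only. Comparison barcodes with the same exclusions were set against the members as well. Against them SPINK5 had ratios of 8.38 (6.52 to 10.6), 1.95 (0.53 to 5.01) and 2.56 (1.89 to 3.38) with hay, concentrate and milk only, LYPD3 2.4 (1.72 to 3.25), 0.453 (0.123 to 1.16) and 1.57 (0.877 to 2.6), S100A12 5.46 (3.15 to 8.84), 1.61 (0.695 to 3.18) and 3.35 (2.67 to 4.16), and HSD17B2 0.674 (0.504 to 0.882), 0.851 (0.504 to 1.35) and 1.31 (0.896 to 1.85). In none of the 4 genes did ratios with intervals that exclude 1 then lie on opposite sides of 1.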

How the results depend on the processing

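Of the 135 members, 58 were left with at least 2 UMIs of AKR1D1 and CROT, 53 with CROT alone as the choosing gene and 47 with at least 800 genes. In this section, a choice on AKR1D1 alone or CROT alone took every member with a UMI of that gene. Without the limit on KRTDAP, A2ML1 and KRT36, 327 were found. The shares of low-mitochondrial barcodes with AKR1D1 or CROT were 17.8%, 10.1% and 14.7% with hay, concentrate and milk only at 2 UMIs, and 16.8%, 9.09% and 14.7% thinned. Higher genes, lower genes and called genes of the lists numbered 29, 87 and 15 under 1.0% mitochondrial share and 33, 126 and 20 with AKR1D1 alone. In each of these settings only 2 libraries had enough members, so a gene had to pass in fewer libraries. Without the keratin limit, where all 3 libraries were used, they numbered 60, 105 and 19. They numbered 168, 281 and 44 at 2 UMIs, 157, 184 and 37 with CROT alone, and 152, 180 and 34 with at least 800 genes, where 1 library had enough members and so fewer had to pass. Depth-matched comparison barcodes gave 39, 80 and 19, the same exclusions 22 higher, and 1.5-fold 35 higher and 18 list genes. At least 300 genes gave 18 higher and 80 lower. CPM over all UMIs gave 23 higher and 40 lower with a median over all genes of 0.14, and median-of-ratios scaling 6 and 97 with a median of -0.29. Leaving out 1 library gave 19 to 33 higher, 69 to 116 lower and 10 to 17 list genes. Against low-mitochondrial barcodes without AKR1D1 or CROT the counts were 1, 0 and 0, and log2 ratios changed sign for GSTA1 (-0.08), ITPR2 (0.56), AHNAK (1.08) and SYNE2 (0.12); the cause was not tested. Of 621 values of the 27 called named genes under 23 alternatives, these 4 changed sign. Of the others, 134 shifted in size and 483 were counted as the same. Not all of these values could change sign. A different fold limit or CPM minimum leaves the ratio as it is. Leaving out 1 library keeps the sign of a gene called in all 3. Over all called genes, 13 of 14 higher and 44 of 56 lower kept their sign against the low-mitochondrial barcodes without AKR1D1 or CROT.

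The keratinocyte median was -0.74 over 3 libraries. It was -0.45 at 2 UMIs, -0.49 with CROT alone and -0.35 with at least 800 genes, where only hay had enough members. With the members as reported, the hay median was -0.52. The keratinocyte median was 0.10 without the keratin limit and -0.37 against low-mitochondrial barcodes without AKR1D1 or CROT. By the mean of each barcode it was -0.38, with no CPM minimum -0.19, and without 1 library -0.79 to -0.68. The leading cluster held 63.7% of members at a higher resolution, 70.4% at a lower one, where 4485 of its 4802 barcodes were comparison barcodes, and 45.9% with 1000 variable genes, where 427 of 610 were. Another 2 alternatives were chosen after seeing the data. Comparison barcodes with AKR1D1 or CROT gave 1 higher gene, 41 lower, 4 list genes and a keratinocyte median of -1.05. Leaving out the pair of identifiers that follow the mitochondrial share gave 9 higher genes, 7 list genes and 51.1% of members in the leading cluster. The cause of these shifts was not tested. No paired analysis was possible because each diet had 1 library. Depth limits genes with few UMIs, and no result has a replicate check.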
